A study of Mus musculus with 8 samples.

Results

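The circadian clock genes described here are Per1, Per2, Per3, Cry1, Cry2, Nr1d1, Nr1d2, Dbp, Arntl and Clock, 10 of the 38215 genes in the deposited tables. They were chosen by name, as the core factors of the clock and its output factor Dbp, and all 10 passed the filter on low counts. RNA came from regulatory T cells (Treg), the CD4+ T cells marked by the transcription factor FoxP3. They had been sorted from bone marrow (BM-Treg) or spleen (SP-Treg) of naive B6.FoxP3-GFP mice aged 12 weeks, in which FoxP3-expressing cells carry a green fluorescent protein, and the labels give the genotype C57Bl/6 throughout. Each tissue had 4 libraries, with 17544552, 20507445, 21921252 and 12427136 expected counts (estimated reads per gene) in BM-Treg replicates 1, 2, 3 and 4. SP-Treg replicates 1, 2, 3 and 4 had 12938469, 13278601, 12924964 and 14121975. By the labels, batch 1 holds BM-Treg replicates 1, 2 and 3, all female, and batch 3 holds BM-Treg replicate 4 and every spleen library, all male. The names of the spleen libraries carry number ranges that overlap, and whether these stand for pools that share mice is not stated. The sources give no time of day for the harvest.

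The mammalian clock is a feedback loop of transcription. CLOCK and ARNTL (also called BMAL1) pair up and bind E-box elements of the Per, Cry, Nr1d and Dbp genes, and the PER and CRY proteins then block that pair. NR1D proteins (REV-ERB) compete with ROR proteins at elements of Arntl and repress it, so that in tissues with a running clock the Arntl transcript peaks roughly opposite to Nr1d1 and Dbp.

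Some libraries went against their labels or stood apart. Xist, the transcript of the inactive X chromosome, was at 1232, 2270 and 2275 CPM (counts per 1000000 of the normalized library) in BM-Treg replicates 1, 2 and 3, and between 1.51 and 2.63 CPM in the other libraries. The summed CPM of the Y-linked genes Ddx3y, Uty, Kdm5d and Eif2s3y was 154, 63.4, 2.02 and 234 in BM-Treg replicates 1, 2, 3 and 4, and between 258 and 286 in SP-Treg. BM-Treg replicates 1 and 2, labelled female, thus held both Xist and Y-linked transcripts, and results are also given without these 2 libraries. SP-Treg replicate 1 differed from the other spleen libraries in erythroid markers, with a summed 2.52 CPM against 191, 462 and 296 CPM in replicates 2, 3 and 4 and between 15.2 and 34.0 CPM in BM-Treg. The heat shock gene Hsph1 was at 1444 and 1266 CPM in SP-Treg replicates 1 and 2, and at 503 and 316 CPM in replicates 3 and 4, all above its range of 159 to 296 CPM in BM-Treg (log2 fold change -2.14, adjusted p 0.0670, edgeR). Summed markers of CD8 T and NK cells (5 genes, all with counts, led by Cd8b1) were at 12.7, 12.7, 12.4 and 11.1 CPM in BM-Treg replicates 1, 2, 3 and 4 and at 14.2, 45.0, 24.6 and 18.5 CPM in SP-Treg, higher in every spleen library. Summed erythroid, B cell and CD8 T and NK cell markers were thus all lower in BM-Treg than in SP-Treg replicates 2, 3 and 4, with B cell markers between 11.5 and 14.8 CPM in BM-Treg and at 107, 23.4 and 18.2 CPM in those spleen libraries. The part of these library differences in the clock results was not tested, beyond leaving the libraries out. The Treg label held in every library, with Foxp3 between 1274 and 2083 CPM.

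To show which elements the clock genes carry near their starts, RefSeq promoter windows (GRCm38.p6, 300 bases, from 250 before to 50 after the start) were searched on both strands for the E-box CACGTG, the E'-box CACGTT, which reads AACGTG from the other strand, the D-box TTATGTAA or TTACGTAA, the RORE core TAGGTCA or TGGGTCA, and the CRE TGACGTCA. The E-box and the E'-box share the letters CACGT, no motif holds another whole, and a match describes letters, not a bound site. Of the 10 clock genes, 9 had a window, and Per2 had none in the table. An E-box was found in 2 of the 9 (Per1 and Cry1), an E'-box in 3 (Cry1, Cry2 and Nr1d1), a D-box in 1 (Per3), a RORE core in 1 (Arntl) and a CRE in 0. Among all 32851 windows, 7.15% held the E-box, 4.68% the E'-box, 1.06% the D-box, 6.45% the RORE core and 1.79% the CRE. The clock genes are counted by gene over 13 windows and all promoters by window, so the counts and these shares are not in the same unit. The windows of Dbp, Nr1d2 and Clock held none of these letters. The sequences below, from RefSeq, are those of the activator gene Arntl (chr7:113207261-113207560, forward strand), of Per1 (chr11:69098699-69098998, forward strand) and Nr1d1 (chr11:98775328-98775627, reverse strand), the clock genes that differed between the tissues, and of the repressor gene Ciart (chr3:95882179-95882478, reverse strand), which holds 3 E-boxes. Capitals mark the motifs.
Arntl: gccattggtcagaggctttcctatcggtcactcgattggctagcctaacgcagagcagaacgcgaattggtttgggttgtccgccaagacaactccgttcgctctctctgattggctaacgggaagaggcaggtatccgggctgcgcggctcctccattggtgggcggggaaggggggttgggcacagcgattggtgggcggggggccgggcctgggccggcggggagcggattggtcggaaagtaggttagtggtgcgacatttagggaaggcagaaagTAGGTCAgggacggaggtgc
Per1: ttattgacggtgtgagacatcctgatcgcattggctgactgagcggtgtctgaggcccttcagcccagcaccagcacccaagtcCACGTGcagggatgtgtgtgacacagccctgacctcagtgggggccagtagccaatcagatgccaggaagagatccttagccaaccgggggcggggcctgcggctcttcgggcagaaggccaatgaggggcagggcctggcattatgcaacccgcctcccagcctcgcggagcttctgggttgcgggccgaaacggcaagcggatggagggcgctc
Nr1d1: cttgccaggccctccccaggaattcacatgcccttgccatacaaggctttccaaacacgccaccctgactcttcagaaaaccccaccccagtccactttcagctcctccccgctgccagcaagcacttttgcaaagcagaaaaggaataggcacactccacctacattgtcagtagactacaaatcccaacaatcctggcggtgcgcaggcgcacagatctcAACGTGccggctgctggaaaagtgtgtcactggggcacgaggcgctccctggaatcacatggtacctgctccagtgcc
Ciart: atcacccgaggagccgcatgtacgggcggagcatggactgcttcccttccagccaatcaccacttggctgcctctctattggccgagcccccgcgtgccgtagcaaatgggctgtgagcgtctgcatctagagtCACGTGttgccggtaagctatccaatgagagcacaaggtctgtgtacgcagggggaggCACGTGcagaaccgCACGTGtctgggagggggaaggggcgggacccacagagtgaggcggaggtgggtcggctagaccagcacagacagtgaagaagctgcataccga

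Of the 10 clock genes, 2 were higher in BM-Treg and 0 were lower (edgeR's quasi-likelihood test, Benjamini-Hochberg adjusted p under 0.05 over 13397 genes), where 3.72% of all genes tested were higher and 5.02% lower. The higher genes were Nr1d1, by 2.31-fold, and Per1, by 1.45-fold. At an unadjusted p under 0.05 the numbers were 4 higher and 0 lower, where 1455 and 1664 of the 13397 genes tested passed, and DESeq2, limma-voom and limma-trend also called 0 lower. The median log2 fold change, BM-Treg over SP-Treg, was 0.29 over the clock genes (0.46 without SP-Treg replicate 1) and -0.01 over all genes tested. Nr1d1 was also the sole clock gene whose tissues did not overlap, 1 of 10 with BM-Treg higher and 0 of 10 with BM-Treg lower, where 7.58% and 8.57% of all genes tested did so. Since these are bulk samples, fewer cells that express a gene and less RNA per cell cannot be told apart. Without BM-Treg replicates 1 and 2, 1 clock gene (Per1) was higher and 0 were lower, where 1.13% of all genes tested were higher and 1.11% lower.

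**Figure D1:**
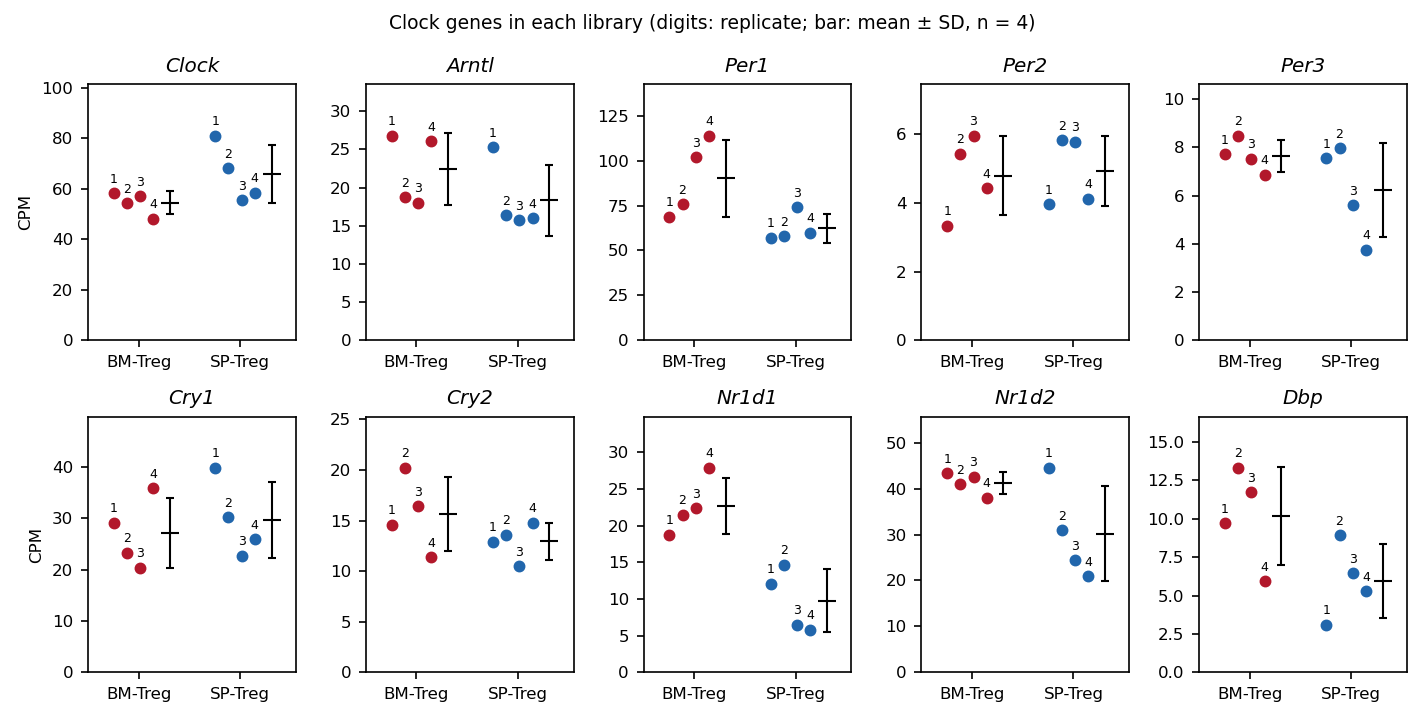
CPM of each clock gene (vertical axis, from 0) in the BM-Treg (red) and SP-Treg (blue) libraries, with the replicate number above each point and the mean ± SD beside each group (n = 4). Nr1d1 lies between 18.8 and 27.9 CPM in BM-Treg and in SP-Treg between 5.81 and 14.7 CPM, and the tissues overlap in the other genes.

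Neither of the activators was called. Clock, which encodes the partner of ARNTL, was at 58.3, 54.4, 57.0 and 48.1 CPM in BM-Treg replicates 1, 2, 3 and 4 and at 81.1, 68.2, 55.6 and 58.4 CPM in SP-Treg. Of the spleen libraries, replicates 1, 2 and 4 lay above every BM-Treg library and replicate 3 lay among them. Clock had a log2 fold change of -0.27 ± 0.13 (SE of the fit) with an adjusted p of 0.216, and of -0.14 with 0.553 without SP-Treg replicate 1 (edgeR). Arntl, which encodes the partner of CLOCK, was at 26.8, 18.7, 18.0 and 26.1 CPM in BM-Treg replicates 1, 2, 3 and 4 and at 25.3, 16.4, 15.7 and 16.0 CPM in SP-Treg. The high libraries were BM-Treg replicates 1 and 4 and SP-Treg replicate 1, so that the tissues overlapped. Arntl had a log2 fold change of 0.28 ± 0.19 (SE) with an adjusted p of 0.405, and of 0.49 with 0.11 without SP-Treg replicate 1 (edgeR).

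Among the repressors of the pair, Per1 was higher in BM-Treg. Per1, which encodes a PER protein and is also an early response gene, was at 68.9, 75.7, 102 and 114 CPM in BM-Treg replicates 1, 2, 3 and 4 and at 57.1, 57.8, 74.1 and 60.0 CPM in SP-Treg. BM-Treg replicates 2, 3 and 4 lay above every spleen library, and BM-Treg replicate 1 lay below SP-Treg replicate 3. For Per1 the log2 fold change was 0.53 ± 0.16 (SE) with an adjusted p of 0.0486 (edgeR), close to the threshold, and the adjusted p lay between 0.0159 and 0.13 over 19 alternative settings. The call was lost without BM-Treg replicate 3 (log2 fold change 0.47, adjusted p 0.13), BM-Treg replicate 4 (0.40, 0.121), SP-Treg replicate 1 (0.51, 0.111), SP-Treg replicate 2 (0.50, 0.118) or SP-Treg replicate 4 (0.51, 0.107), and with limma-voom (0.51, 0.0607). Without BM-Treg replicates 1 and 2, the log2 fold change of Per1 was 0.82 with an adjusted p of 0.0159. Within batch 3, BM-Treg replicate 4 exceeded the SP-Treg libraries by a log2 fold change of 0.90, with an adjusted p of 0.0643 when the single library is assumed to vary like the spleen libraries.

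The other Per and Cry genes overlapped between the tissues, and none was called. Per2, a PER gene of the same loop, was at 3.34, 5.43, 5.96 and 4.43 CPM in BM-Treg replicates 1, 2, 3 and 4 and at 3.96, 5.83, 5.78 and 4.12 CPM in SP-Treg. Its high libraries were replicates 2 and 3 of both tissues, and its log2 fold change was -0.03 ± 0.26 (SE). Per3, whose product has a weaker part in the loop, lay between 6.86 and 8.49 CPM in BM-Treg and between 3.75 and 7.98 CPM in SP-Treg. Its log2 fold change was 0.30 ± 0.24 (SE), and ran from 0.12 without SP-Treg replicate 4 to 0.44 without SP-Treg replicate 2. Cry1, which encodes the stronger CRY repressor, lay between 20.4 and 35.8 CPM in BM-Treg and between 22.7 and 39.8 CPM in SP-Treg. Its highest library was SP-Treg replicate 1 and its second highest BM-Treg replicate 4, and the log2 fold change was -0.13 ± 0.20 (SE). Within batch 3 the log2 fold change of Cry1 was 0.29, so that its sign depended on the libraries compared. Cry2, the other CRY gene, lay between 11.4 and 20.2 CPM in BM-Treg and between 10.5 and 14.8 CPM in SP-Treg, with a log2 fold change of 0.28 ± 0.19 (SE). Within batch 3 the log2 fold change of Cry2 was -0.17, also of the opposite sign. The adjusted p was 0.957 for Per2, 0.486 for Per3, 0.739 for Cry1 and 0.401 for Cry2 (edgeR).

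In the loop that represses Arntl, Nr1d1 showed the largest log2 fold change of the 10 clock genes. Nr1d1, which encodes the repressor REV-ERB alpha, was at 18.8, 21.5, 22.4 and 27.9 CPM in BM-Treg replicates 1, 2, 3 and 4 and at 12.1, 14.7, 6.53 and 5.81 CPM in SP-Treg. All BM-Treg libraries lay above all spleen libraries, and within the spleen replicates 3 and 4 were lower than replicates 1 and 2. Nr1d1 had a log2 fold change of 1.21 ± 0.27 (SE) with an adjusted p of 0.0161 (edgeR; between 0.000169 and 0.202 over 19 alternatives), and the call held without any single library, at log2 fold changes between 1.02 and 1.47. Without BM-Treg replicates 1 and 2 it was 1.39 with an adjusted p of 0.0764, with the batch of the labels as a term 1.51 with 0.0768, and within batch 3 alone 1.53 with 0.202. In these comparisons the fold change of Nr1d1 was thus as large and the call was lost.

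The 3' end of Nr1d1 lies within the thyroid hormone receptor gene Thra on the other strand, an overlap of 1075 bases in the coordinates of the deposited tables. Whether counting used the strand is not stated, so reads from that overlap cannot be assigned to either gene with certainty. Thra was at 34.0, 25.7, 25.9 and 16.4 CPM in BM-Treg replicates 1, 2, 3 and 4 and at 9.14, 11.2, 11.1 and 8.01 CPM in SP-Treg. It was higher in all BM-Treg libraries too, with a log2 fold change of 1.38 and an adjusted p of 0.00123 (edgeR). Other clock genes overlap neighbours too, Dbp with Sphk2 (689 bases, other strand; log2 fold change of Sphk2 -0.05), Per3 with Camta1 (41014 bases, same strand; Camta1 0.08) and Cry2 with D930015M05Rik (23417 bases, other strand), which was at 1.30 CPM or less. For Nr1d1 and Thra the orders within BM-Treg differed, since BM-Treg replicate 4 was the highest of that tissue for Nr1d1 and the lowest for Thra. The part of Thra reads in the Nr1d1 result was not tested.

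**Figure D2:**
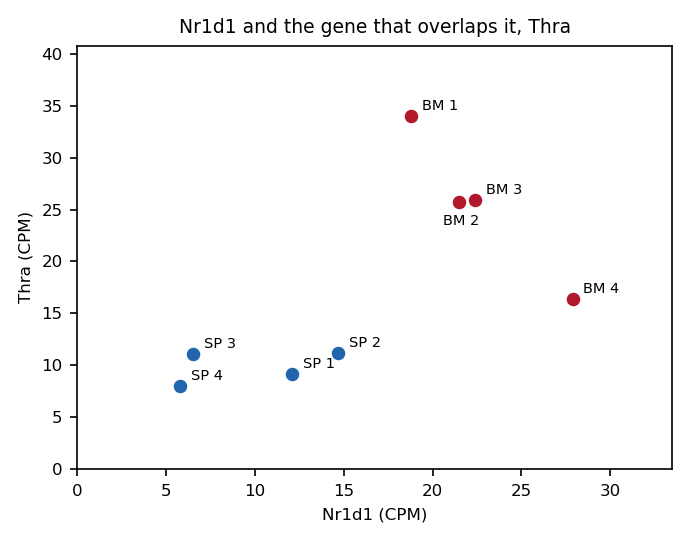
CPM of Nr1d1 (horizontal axis) against CPM of Thra (vertical axis) in each library, both axes from 0, BM-Treg in red and SP-Treg in blue, labelled by tissue and replicate. All BM-Treg libraries lie above all spleen libraries on both axes, with BM-Treg replicate 4 at 27.9 CPM of Nr1d1 and 16.4 CPM of Thra.

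Nr1d2, which encodes the related repressor REV-ERB beta, was at 43.3, 40.9, 42.6 and 38.0 CPM in BM-Treg replicates 1, 2, 3 and 4 and at 44.5, 31.0, 24.4 and 20.9 CPM in SP-Treg. SP-Treg replicate 1 was the highest of all libraries and the other spleen libraries lay below every BM-Treg library. For Nr1d2 the log2 fold change was 0.45 ± 0.19 (SE) with an adjusted p of 0.179 (between 0.0105 and 0.707 over 19 alternatives). Without SP-Treg replicate 1 it was 0.71 with an adjusted p of 0.0105, so that this library decided the call.

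Dbp, the output factor that binds D-box elements, was at 9.71, 13.3, 11.7 and 5.94 CPM in BM-Treg replicates 1, 2, 3 and 4 and at 3.09, 8.94, 6.45 and 5.29 CPM in SP-Treg. BM-Treg replicates 1, 2 and 3 lay above every spleen library, whereas BM-Treg replicate 4 lay among them, and SP-Treg replicate 1 was the lowest. Dbp had a log2 fold change of 0.79 ± 0.31 (SE) with an adjusted p of 0.141 (edgeR). The log2 fold change of Dbp was 0.62 without BM-Treg replicates 1 and 2 and 0.02 within batch 3, where BM-Treg replicate 4 stands alone for its tissue. The high BM-Treg values of Dbp therefore came from the libraries of batch 1, and batch, labelled sex and tissue cannot be told apart in them.

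**Figure D3:**
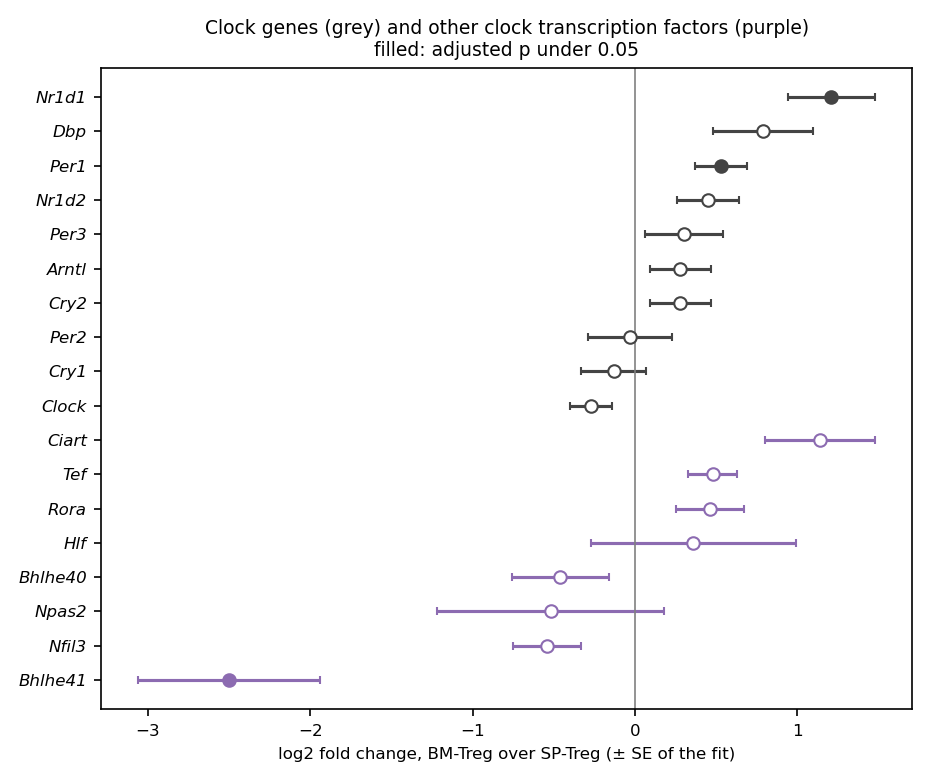
Log2 fold change of BM-Treg over SP-Treg (horizontal axis, ± SE of the fit) for the clock genes (grey) and the other clock transcription factors that passed the filter (purple), with filled points for an adjusted p under 0.05. Nr1d1 at 1.21 and Per1 at 0.53 are the filled clock genes, and Bhlhe41 at -2.50 is the filled gene among the other factors. Bhlhe41 passed the filter through its spleen counts.

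To read the phase of each library, the mean log2 CPM of Arntl and Clock was subtracted from that of Per1, Per2, Per3, Nr1d1, Nr1d2 and Dbp, which the activator pair drives. This contrast was -1.33, -0.77, -0.73 and -1.07 in BM-Treg replicates 1, 2, 3 and 4 and -1.91, -1.16, -1.33 and -1.72 in SP-Treg. BM-Treg replicates 2, 3 and 4 lay above every spleen library and BM-Treg replicate 1 lay at the level of SP-Treg replicate 3. The BM-Treg mean exceeded the SP-Treg mean by 0.55 on the log2 scale, where the SD over all libraries of a tissue was 0.282 (BM-Treg) and 0.344 (SP-Treg). Without BM-Treg replicates 1 and 2 the difference was 0.63. The driven genes averaged 4.14 ± 0.139 log2 CPM (SD, n = 4) in BM-Treg and 3.57 ± 0.281 in SP-Treg, with no overlap. Taken singly, Nr1d1 (log2 fold change 1.21) was the sole driven gene whose tissues did not overlap. This mean was not computed without Nr1d1. Arntl and Clock together averaged 5.12 ± 0.146 in BM-Treg and 5.10 ± 0.279 in SP-Treg, a mean in which their opposite log2 fold changes of 0.28 and -0.27 offset each other. Without SP-Treg replicate 1 these were 0.49 and -0.14, so that the offset depended on that library. Cry1 and Cry2 stood outside the contrast because Cry1 answers to RORE as well as E-box elements. With both added to the driven genes, a variant chosen after the data were seen, the difference between the tissues was 0.43.

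Of the single ratios, that of Nr1d1 to Arntl kept most of this order and that of Dbp to Arntl did not. The ratio of Nr1d1 to Arntl was 0.701, 1.15, 1.24 and 1.07 in BM-Treg replicates 1, 2, 3 and 4 and 0.477, 0.898, 0.415 and 0.362 in SP-Treg. SP-Treg replicate 2 thus lay above BM-Treg replicate 1 and the other spleen libraries lay below all of BM-Treg. The ratio of Dbp to Arntl was 0.362, 0.710, 0.647 and 0.228 in BM-Treg and 0.122, 0.546, 0.410 and 0.330 in SP-Treg, in the same order of replicates. BM-Treg replicates 2 and 3 were the highest for it, BM-Treg replicate 4 lay below SP-Treg replicates 2, 3 and 4, and SP-Treg replicate 1 was the lowest.

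**Figure D4:**
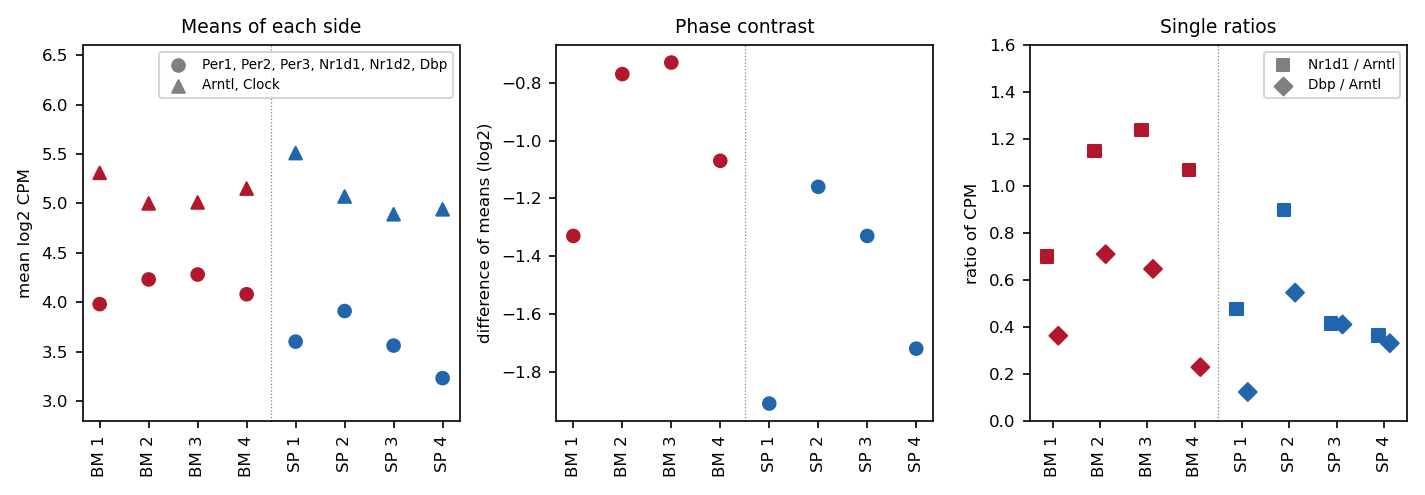
Mean log2 CPM of the driven genes (circles) and of Arntl and Clock (triangles) in each library at left, their difference in the middle, and the CPM ratios of Nr1d1 and Dbp to Arntl at right, with BM-Treg in red and SP-Treg in blue. The driven genes lie between 3.98 and 4.28 in BM-Treg and between 3.23 and 3.91 in SP-Treg, while the triangles overlap.

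The libraries of a tissue did not share a single order over the clock genes. In BM-Treg replicate 2, 6 of the 6 driven genes lay above their median over the 8 libraries, and 5 of 6 did so in BM-Treg replicate 3. The number was 4 in BM-Treg replicate 1 and 2 in BM-Treg replicate 4, where Per1 and Nr1d1 were the highest of all libraries and Per2, Per3, Nr1d2 and Dbp were not above their medians. In SP-Treg replicates 1, 2, 3 and 4 the numbers were 2, 3, 2 and 0. SP-Treg replicate 1 combined the highest Clock, Cry1 and Nr1d2 of all libraries with the lowest Dbp and Per1. Within a tissue the highest library exceeded the lowest by 2.24-fold in BM-Treg and 2.89-fold in SP-Treg for Dbp, and by 1.48-fold and 2.53-fold for Nr1d1. For Arntl these ratios were 1.49 and 1.61, and for Clock 1.21 and 1.46. With no harvest times, no phase can be assigned to a library.

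Compared per transcript length, Per1 was the most abundant clock gene in both tissues, at 24.4 ± 4.91 FPKM (SD, n = 4) in BM-Treg and 15.3 ± 1.61 FPKM in SP-Treg. In BM-Treg there followed Dbp (12.1 FPKM), Nr1d2 (10.4), Nr1d1 (10.2), Cry1 (9.39), Arntl (8.08) and Clock (7.54), whose neighbours in this order lay within their summed SDs. Cry2 (5.50 FPKM), Per3 (1.59) and Per2 (0.853) closed the order, each apart from the gene above it by more than the summed SDs. In SP-Treg the order was Per1, Cry1 (9.97 FPKM), Clock (8.75), Nr1d2 (7.32), Arntl (6.42), Dbp (6.37), Nr1d1 (4.05) and Cry2 (3.90), then Per3 (1.33) and Per2 (0.828). There the steps from Per1 to Cry1 and from Cry2 to Per3 exceeded the summed SDs. Dbp and Nr1d1 thus held ranks 2 and 4 in BM-Treg and ranks 6 and 7 in SP-Treg.

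The transcript tables list 1 transcript each for Arntl, Clock, Cry1 and Per2 and more than that for the other clock genes. For Nr1d1, the transcript ENSMUST00000064941 took 94.2% ± 3.52 (SD, n = 4) of the gene's expected counts in BM-Treg and 95.6% ± 2.39 in SP-Treg. For Per1, 5 of 6 listed transcripts had counts, and ENSMUST00000166748 differed between the tissues. Its share was 0.00318%, 0%, 0% and 0% in BM-Treg replicates 1, 2, 3 and 4 and 2.85%, 38.4%, 34.8% and 27.8% in SP-Treg. All BM-Treg values lay under the share that 3 counts would give, which was between 0.129% and 0.239%, and SP-Treg replicate 1 lay well below the other spleen libraries. In GENCODE M21 (GRCm38) this transcript starts 6 bases after the transcription start in the later RefSeq window of Per1 and 1209 bases after the transcription start in the window printed above. The transcript with the largest mean share, ENSMUST00000101004 (56.7% in BM-Treg and 43.3% in SP-Treg), starts 3732 bases before that printed start, outside the window. ENSMUST00000021271 (38.0% and 27.3%) starts 1 base before it. Per1 transcripts share most of their exons, so that these shares are uncertain estimates from single-end reads of 80 nt, and no test was run on them.

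**Figure D5:**
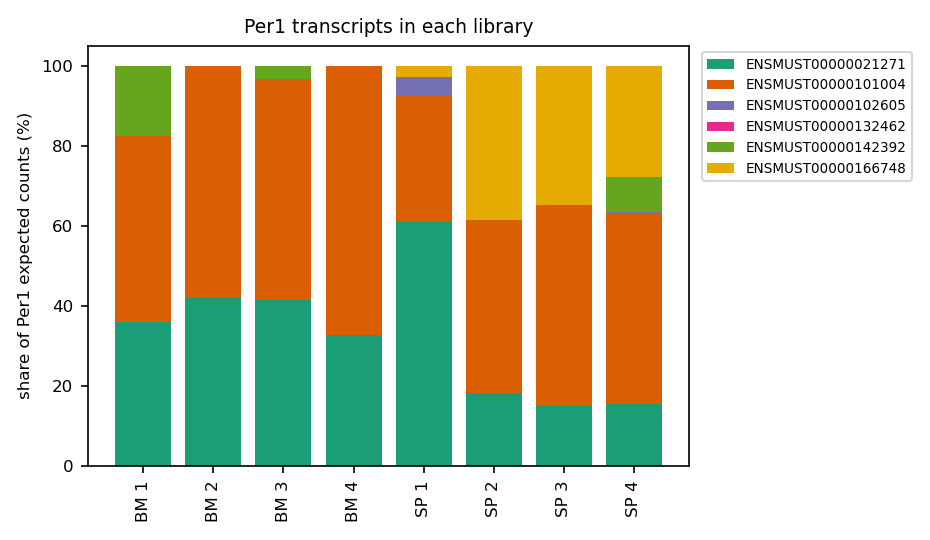
Share of the Per1 expected counts on each listed transcript (stacked bars, in percent) in the BM-Treg and SP-Treg libraries, by replicate, with transcripts by their Ensembl identifiers. The share of ENSMUST00000166748 is 38.4%, 34.8% and 27.8% in SP-Treg replicates 2, 3 and 4, 2.85% in SP-Treg replicate 1 and near 0 in BM-Treg.

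Of 10 other clock transcription factors, 8 passed the filter, and 1 of these, Bhlhe41, was lower in BM-Treg. Of all genes tested, 5.02% were lower. Bhlhe41, which encodes the repressor DEC2 that competes at E-boxes, was at 0.164, 0.186, 0.614 and 0.836 CPM in BM-Treg replicates 1, 2, 3 and 4 and at 1.29, 3.99, 2.18 and 2.5 CPM in SP-Treg. The tissues did not overlap, at a low level of between 3 and 50 expected counts per library. With 3, 4, 14 and 10 counts in BM-Treg and 18, 50, 26 and 34 in SP-Treg, Bhlhe41 passed the filter through its spleen counts. It was not tested with at least 10 counts in every library, and nothing is drawn from its call. Bhlhe41 had a log2 fold change of -2.50 ± 0.56 (SE) with an adjusted p of 0.0124 (edgeR). It was -1.76 with 0.14 without BM-Treg replicates 1 and 2, -1.54 with 0.375 within batch 3, and -0.33 with 0.147 in limma-trend on log2(FPKM + 1), the smallest of 18 alternatives. Of these 8 factors 0 were called higher by edgeR, 2 had an unadjusted p under 0.05 in that direction, and DESeq2 called 2, limma-voom 1 and limma-trend on log2(FPKM + 1) 2.

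The factors nearest to a call in the direction of Nr1d1 were Ciart and Tef. Ciart, a repressor of the activator pair, was at 4.93, 6.40, 8.55 and 6.61 CPM in BM-Treg replicates 1, 2, 3 and 4 and at 1.65, 1.68, 4.94 and 3.82 CPM in SP-Treg. BM-Treg replicates 2, 3 and 4 lay above the spleen and replicate 1 just below SP-Treg replicate 3. Ciart had a log2 fold change of 1.14 ± 0.34 (SE) with an adjusted p of 0.0550 (edgeR; between 0.0154 and 0.382 over 19 alternatives), and 7 of these called it, among them DESeq2 (0.0159) and the fit without SP-Treg replicate 3 (0.0192). Tef, a D-box factor related to Dbp, was at 14.9, 18.9, 21.3 and 19.6 CPM in BM-Treg replicates 1, 2, 3 and 4 and at 13.5, 13.6, 13.8 and 12.4 CPM in SP-Treg. All BM-Treg libraries lay above the spleen, with a log2 fold change of 0.48 ± 0.15 (SE) and an adjusted p of 0.0585. Tef was called in 5 of 19 alternatives (adjusted p between 0.028 and 0.283), among them the fit without BM-Treg replicate 1, with a log2 fold change of 0.61 and an adjusted p of 0.0289.

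The remaining factors overlapped between the tissues. Hlf, the D-box factor next to Tef in its family, was at 3.67, 3.39, 3.29 and 12 CPM in BM-Treg replicates 1, 2, 3 and 4 and at 7.70, 6.07, 1.59 and 1.69 CPM in SP-Treg. BM-Treg replicate 4 was the highest library, and Hlf split the spleen into replicates 1 and 2 above 3 and 4, as Nr1d1 and Hsph1 did. Nfil3, which represses D-box genes, had a log2 fold change of -0.54 and an adjusted p of 0.141. Rora, which activates Arntl, had a log2 fold change of 0.46 and an adjusted p of 0.228. Bhlhe40 and Npas2 had log2 fold changes of -0.46 and -0.52 with adjusted p values of 0.413 and 0.709. Nfil3 was called without BM-Treg replicate 4 (-0.72, adjusted p 0.0384) and Rora without SP-Treg replicate 1 (0.71, 0.0178), each in 1 of 19 alternatives. Arntl2 and Rorb did not pass the filter.

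Of 17 kinases, ubiquitin ligase subunits and other partners of the clock proteins, 16 passed the filter and 0 were called in either direction by edgeR, limma-voom and limma-trend. At an unadjusted p under 0.05, 0 were higher and 4 lower, and DESeq2 called 1 lower, Timeless. Timeless, a partner of the replication fork with a debated part in the clock, had a log2 fold change of -0.78 with an adjusted p of 0.0757 (edgeR). The log2 fold change of Timeless was -0.93 (0.0388) without SP-Treg replicate 2, -0.53 (0.211) without SP-Treg replicate 4 and -0.49 with the batch term. Timeless was called in 3 of 19 alternatives. Of 8 output genes outside the loops, all passed the filter and 1, Nampt, was lower in BM-Treg, with 0 higher by edgeR, DESeq2, limma-voom and limma-trend. At an unadjusted p under 0.05, 0 output genes were higher and 3 lower, and 7 of the 8 had a log2 fold change below 0. Nampt, the rate-limiting enzyme of NAD salvage and a target of the activator pair, was at 35.0, 45.6, 48.1 and 33.5 CPM in BM-Treg replicates 1, 2, 3 and 4 and at 77.8, 56.0, 65.0 and 76.6 CPM in SP-Treg. The tissues did not overlap, and the log2 fold change of Nampt was -0.76 ± 0.15 (SE) with an adjusted p of 0.00481 (edgeR), opposite in sign to Nr1d1 and Per1. Without BM-Treg replicates 1 and 2 the log2 fold change of Nampt was -0.72 with an adjusted p of 0.073, and within batch 3 it was -1.02 with 0.0814. The call of Nampt was also lost in limma-trend on log2(FPKM + 1) (-0.64, 0.0541) and log2(FPKM + 0.1) (-0.69, 0.0553). Over the 3 lists together, 0 genes were higher and 2 lower of 32 tested by edgeR, with a median log2 fold change of -0.17. Over all genes tested, 3.72% were higher and 5.02% lower. The 2 lower genes were Nampt and Bhlhe41, and Bhlhe41 passed the filter through its spleen counts. Of the 32, 9 had a log2 fold change above 0 and 23 below. At an unadjusted p under 0.05, 2 were higher and 9 lower, where 1455 and 1664 of all 13397 genes passed. DESeq2 called 2 higher and 3 lower, limma-voom 1 higher and 2 lower, and limma-trend on log2(FPKM + 1) 2 higher and 0 lower. The balance of calls also turned with the tool over all genes, at 499 higher and 673 lower by edgeR and 482 and 283 by limma-trend on log2(FPKM + 1).

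The genes most like Dbp and Arntl over the libraries were not clock genes. Among 8557 genes whose log2 CPM averaged 3 or more, the 5 with the highest Pearson correlation to Dbp in log2 CPM (n = 8 libraries of both tissues) were Ndor1 (r = 0.980), Dyrk1b (0.929), Gpr108 (0.928), Hdac10 (0.927) and Icosl (0.926). For Arntl they were Ppp2ca (0.976), Tirap (0.943), Kdm5b (0.922), Orm2 (0.920) and Prkcd (0.914). Between clock genes, r was -0.259 for Dbp with Arntl. With the other clock genes, r for Dbp ran from -0.688 (Cry1) to 0.626 (Cry2), and was 0.484 with Nr1d1. For Arntl it ran from -0.718 (Per2) to 0.718 (Nr1d2), and was 0.686 with Cry1 and 0.562 with Nr1d1. These values describe 8 libraries that share tissue, batch and depth, and carry no test.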

How the data were processed

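RNA of sorted FoxP3+ cells from bone marrow and spleen (4 libraries each, 15 ng of RNA, amplified with NuGEN SPIA, single-end reads of 80 nt) was used. The deposited expected counts per gene and transcript and the deposited FPKM (counts per transcript length and depth) were made by the authors. The submitters' processing notes name cutadapt 1.9, STAR 2.5.2a, RSEM 1.2.30 and GRCm38. Expected counts were rounded to whole numbers, filtered with edgeR's filterByExpr (13397 of 38215 genes), scaled with TMM factors and compared by the quasi-likelihood F-test of edgeR (robust, no covariate, Benjamini-Hochberg over all genes, threshold 0.05). CPM values use TMM library sizes, with a prior count of 2 on the log2 scale. Tools were edgeR 4.0.16, DESeq2 1.42.0 and limma 3.58.1 under R 4.3.3, and the fits were tested on simulated data. SEs are the log2 fold change divided by the root of the F statistic.

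Genes named are the clock genes, the other clock transcription factors, other listed genes with an adjusted p under 0.05, the Treg markers, and the 5 genes most correlated with Dbp and with Arntl. Xist, Tsix and the Y-linked genes are named as markers of sex. Thra, Hsph1, Timeless, Klrb1c, Jchain, Sdc1 and Nr3c1 were named after their values were seen. Each marker list is given with its most abundant gene, genes that overlap a clock gene are named as such, and 1 further clock gene of the planned lists is not reported here. Marker lists were compared by exact two-sided permutation of log2(summed CPM + 0.5). With 4 against 4 libraries the smallest p is 0.0286, and p values were adjusted over 9 lists. All listed genes matched the tables, 8 of them by identifier. Alternatives comprised size factors and the test of DESeq2, limma-voom, other filters, limma-trend on FPKM (log2 after adding 1 or 0.1), a term for batch, the libraries of batch 3 alone, a block for the replicate number and each library left out in turn. In batch 3 alone the single BM-Treg library was assumed to vary like the SP-Treg libraries. Leaving out both BM-Treg libraries with Xist and Y-linked transcripts, and adding Cry1 and Cry2 to the driven genes, were chosen after seeing the data. The members and lists were chosen with earlier results of these data known. The cDNA carried no molecular identifiers, so limits set by 3 counts cover counting error only. Libraries were not duplicates of each other within a tissue (chi-square per degree of freedom of at least 14.2 over genes with a mean of 50 counts).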

Additional observations from a re-analysis of the deposited data

Results flagged for a closer look

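In 11 of 104 groups of 4 libraries, 1 library lay apart from the other 3 by most of the group's range, which can be narrow, where chance gives about 1 in 20. Among the clock genes, Per1 was at 74.1 CPM in SP-Treg replicate 3, against 57.1 to 60.0 CPM in the other spleen libraries. Arntl was at 25.3 CPM in SP-Treg replicate 1, against 15.7 to 16.4 CPM. Of the other clock factors, Hlf was at 12 CPM in BM-Treg replicate 4, against 3.29 to 3.67 CPM. Cirbp was at 10.1 CPM in SP-Treg replicate 4, against 5.97 to 6.31 CPM. Il2ra was at 940.2 CPM in BM-Treg replicate 4, against 737 to 763 CPM, and Ikzf2 at 2611 CPM in SP-Treg replicate 1, against 1993 to 2067 CPM. Cd8a was at 1.72 CPM in BM-Treg replicate 2, against 0.836 to 0.932 CPM. The summed B cell markers were at 107 CPM in SP-Treg replicate 2, against 7.77 to 23.4 CPM. The summed plasmacytoid dendritic cell markers were at 65.2 CPM in BM-Treg replicate 2, against 66.7 to 66.8 CPM. The summed CD8 T and NK cell markers were at 11.1 CPM in BM-Treg replicate 4, against 12.4 to 12.7 CPM. The summed Y-linked genes were at 258 CPM in SP-Treg replicate 2, against 282 to 286 CPM.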

How the results depend on the processing

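The number of clock genes higher in BM-Treg was 2 in the edgeR fit, 1 with limma-voom and with the batch term, 0 in batch 3 alone, 1 without the libraries that carry Xist and Y-linked transcripts, and between 1 and 2 with a library left out. The number lower was 0 throughout. Of the other clock pathway genes, 0 were higher in the edgeR fit, 2 with DESeq2's own test, 1 with limma-voom, 2 with log2(FPKM + 1), 1 with log2(FPKM + 0.1), 1 with no filter, 2 with at least 10 counts in every library, 0 with the batch term and in batch 3 alone, and 0 to 1 with a library left out. The number lower was 2 in the edgeR fit, 0 with both FPKM scales, 1 with at least 10 counts in every library, 1 with the batch term, 0 in batch 3 alone, 0 without the libraries that carry Xist and Y-linked transcripts, and 2 to 3 with a library left out. The cause was not tested, and Bhlhe41, 1 of the 2 lower genes in the edgeR fit, passed the filter through its spleen counts. The median log2 fold change of the clock genes was above 0 in all 19 alternatives, at 0.21 with the batch term and from 0.23 without SP-Treg replicate 3 to 0.46 without SP-Treg replicate 1. The phase contrast, negative in every library, had a higher mean in BM-Treg than in SP-Treg in all 13 of its alternatives, by 0.43 to 0.68.

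With the replicate number as a replicate block, the clock genes called higher were 2, Per1 and Nr1d1, as without it, and 1 other clock pathway gene, Ciart, was higher. Same-numbered libraries did not deviate together (r = -0.07, 0.04, -0.18 and 0.17), so the numbers do not pair the samples, and the block changed no other call of the clock pathway genes.

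Over all genes, 499 were higher and 673 lower in the edgeR fit, 781 and 922 with DESeq2's own test, 482 and 283 with log2(FPKM + 1), 454 and 274 with log2(FPKM + 0.1), 632 and 599 with at least 10 counts in every library, 111 and 147 with the batch term, 26 and 53 in batch 3 alone, and 157 and 155 without the libraries that carry Xist and Y-linked transcripts. Per1 was called in 12 of 19 alternatives and Nr1d1 in 16 of 19. Depth limits the genes with few reads, with as few as 43.2, 51.0 and 53.0 expected counts in a library for Dbp, Per3 and Per2, and 1, 3, 19.0 and 21 for Npas2, Bhlhe41, Hlf and Ciart.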

Other observations

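Some genes that answer to inputs of the clock were called. Of all 13397 genes tested by edgeR, 3.72% were higher in BM-Treg and 5.02% lower. At an unadjusted p under 0.05 these numbers were 1455 and 1664. Without BM-Treg replicates 1 and 2, 1.13% of all genes tested were higher and 1.11% lower. Of 8 genes of the glucocorticoid response tested, the receptor gene Nr3c1 among them, with a median log2 fold change of -0.03, 3 were higher in BM-Treg, namely Dusp1 (log2 fold change 1.38, adjusted p 0.0236), Sgk1 (0.90, 0.00517) and Tsc22d3 (0.81, 0.0366). At an unadjusted p under 0.05, 0 were lower, and DESeq2, limma-voom and limma-trend also called 0 lower, while limma-trend called 2 higher in place of 3. Dusp1, a phosphatase gene induced early by many stimuli, was at 413, 473, 784 and 662 CPM in BM-Treg replicates 1, 2, 3 and 4 and at 131, 196, 306 and 260.5 CPM in SP-Treg. As for Per1, the highest libraries of each tissue were BM-Treg replicates 3 and 4 and SP-Treg replicate 3, and their part in the Per1 result was not tested. Of 9 immediate early genes tested, 3 were higher, Dusp1 again, Fosb (2.54, 0.0452) and Junb (1.31, 0.0216), and 2 were lower, Egr1 (-1.02, 0.00343) and Egr2 (-2.41, 0.00131), so that the list moved in both directions. Without BM-Treg replicates 1 and 2, Dusp1, Sgk1, Egr1 and Egr2 were still called, and Tsc22d3 (0.81, 0.164), Fosb (2.91, 0.136) and Junb (1.56, 0.064) were not, at log2 fold changes as large.

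The lists that follow stand beside the same shares of all genes tested, 3.72% higher and 5.02% lower. Among 9 cold-inducible and heat shock genes, Cirbp, which encodes an RNA-binding protein that acts on Clock transcripts, was higher in BM-Treg. It was at 19.6, 16.7, 23.1 and 21.4 CPM in BM-Treg replicates 1, 2, 3 and 4 and at 5.97, 6.31, 6.28 and 10.1 CPM in SP-Treg, with no overlap and a fold change of 2.82 (adjusted p 0.000590). The chaperone genes Hsp90aa1 (-1.50, 0.00484) and Hspa8 (-0.85, 0.00271) were lower, and without BM-Treg replicates 1 and 2 neither was called (-1.34, 0.096 and -0.67, 0.0657), whereas Cirbp was (0.00956). Of 8 genes of homing and tissue egress, Cxcr5 (-1.54, 0.000176) and Ccr7 (-1.30, 0.0163) were lower, and 0 were higher by edgeR, 3 at an unadjusted p under 0.05 and 1 by DESeq2. Without BM-Treg replicates 1 and 2, Cxcr5 was called (-1.44, 0.0129) and Ccr7 was not (-1.16, 0.183). Of the 6 Treg markers Foxp3, Il2ra, Ctla4, Ikzf2, Cd4 and Cd3e, 0 were called by edgeR, limma-voom and limma-trend, 1 had an unadjusted p under 0.05, and DESeq2 called 1 lower.

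Markers of other cells were present at levels that differed between lists and libraries. By edgeR, 5.02% of all 13397 genes tested were lower in BM-Treg, and 1664 were so at an unadjusted p under 0.05. Summed CPM of the 7 erythroid markers, led by Hbb-b1, lay between 15.2 and 34.0 in BM-Treg and was 2.52, 191, 462 and 296 in SP-Treg replicates 1, 2, 3 and 4. All 6 erythroid genes tested were lower in BM-Treg at an unadjusted p under 0.05, with a median log2 fold change of -3.46, and DESeq2 called 3 of them and edgeR 0. The 7 B cell markers, led by Cd79b, lay between 11.5 and 14.8 in BM-Treg and were at 7.77, 107, 23.4 and 18.2 in SP-Treg. Of 5 B cell genes tested, 1, Ebf1, was lower in BM-Treg by edgeR (log2 fold change -2.42, adjusted p 0.0332), 3 at an unadjusted p under 0.05, 2 by DESeq2 and 0 by limma-voom and limma-trend. Ebf1 lay between 0.417 and 1.37 CPM in BM-Treg and between 1.44 and 11.1 CPM in SP-Treg. It passed the filter through its spleen counts, and nothing is drawn from its call. The 5 CD8 T and NK cell markers, led by Cd8b1, lay between 11.1 and 12.7 in BM-Treg and between 14.2 and 45.0 in SP-Treg, with an exact permutation p of 0.0286 and 0.129 after adjustment over 9 lists. Cd8a was lower in BM-Treg (-2.99, adjusted p 0.0293 by edgeR), at 0.932, 1.72, 0.877 and 0.836 CPM in BM-Treg replicates 1, 2, 3 and 4 and at 1.80, 21.1, 6.62 and 6.03 CPM in SP-Treg. Of its list, limma-voom and limma-trend on log2(FPKM + 1) called 0 genes lower, and DESeq2 and limma-trend on log2(FPKM + 0.1) called 1. Neither Ebf1 (-2.46, 0.188) nor Cd8a (-3.32, 0.201) was called without BM-Treg replicates 1 and 2. Klrb1c of the CD8 T and NK cell list was at 0 CPM in every BM-Treg library and averaged 0.775 CPM in SP-Treg. It passed the filter in that fit, and not over all libraries, through its spleen counts alone. Nothing is therefore drawn from its call there (adjusted p 0.0487, edgeR). The 6 plasma cell markers lay between 342 and 495, of which Prdm1, a gene of effector Treg, gave the largest part. The plasma cell gene Jchain, which did not pass the filter, was at 0.216, 24.7, 8.96 and 5.66 CPM in SP-Treg replicates 1, 2, 3 and 4 and at up to 0.395 CPM in BM-Treg, with overlap, and Sdc1, which did not pass it either, averaged 0.502 CPM against 0.0232 CPM.

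The 8 neutrophil markers, led by Ngp, summed to between 0.216 and 16.9 CPM over all libraries. The 6 monocyte and macrophage markers, led by Lyz2, lay between 7.19 and 28.5 CPM, and the 5 plasmacytoid dendritic cell markers, led by Ccr9, between 37.0 and 80.1 CPM. Each list had counts for all of its genes in at least 1 library. For summed markers the adjusted p was 1 for neutrophil, 0.450 for erythroid, 0.566 for B cell, 0.943 for plasma cell, 1 for plasmacytoid dendritic cell and 1 for monocyte and macrophage lists (exact permutation tests). With the mean of log2(CPM + 1) over each list in place of the sum, it was 0.214 for erythroid and for B cell, and 0.129 for plasma cell markers, whose difference moved from -0.06 to -0.71. For summed Xist with Tsix the adjusted p was 0.171 and for the Y-linked genes 0.129. The markers that differed between the tissues did so alongside the clock genes, and their part in the clock results was not tested.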
